A study of Drosophila melanogaster with 2 samples.

Results

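Transposable elements are stretches of DNA that move or copy themselves within a genome, and each insertion of one is called a copy. The 879 copies described here are the features annotated as transposable elements on chromosome arms 2L (end up to 22247875) and 3L (end up to 5149852), the stretches where gene names fit the measured levels. They are 879 of 5237 features in those stretches, and the whole table holds 5576 copies among 23932 features. Another 2 annotated copies there were not analysed here. Of the 879, 807 lie on 2L and 72 on 3L, and 405 lie inside a gene, 460 outside genes and 14 partly over one. They belong to 92 families, a family being the name before the braces in a copy's symbol.

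RNA came from the hindgut of adult Drosophila melanogaster carrying byn-Gal4, a driver line named for the hindgut regulator brachyenteron, and all animals were reared at 25 °C. Mature guts were taken from adults kept for 4 days at 18 °C, and young guts from adults as they emerged. Each age had 100 to 150 guts and 3 replicates, hence 6 libraries, and the labels name adult ileal cells, from the tubular part of the hindgut. Age and adult temperature cannot be told apart. Only a mean over all libraries, a log2 fold change of young over mature with its standard error (SE) and an adjusted p were used here, so a negative log2 change is higher in mature guts and no value per library is given. Nothing states that the replicates came from separate animals, so the p-values reflect only how these libraries vary, possibly for technical reasons.

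Retrotransposons copy themselves through RNA. Those with long terminal repeats (LTR elements such as copia, mdg1, blood and roo) resemble retroviruses, and those without (non-LTR elements such as Doc and jockey) resemble mammalian LINEs. DNA transposons with terminal inverted repeats, such as pogo, hobo (symbol H) and 1360, are cut out and reinserted by a transposase, and INE-1 is an ancient, short element related to Helitrons. In flies, Piwi-interacting RNAs (piRNAs) hold elements silent in the gonads, and small interfering RNAs made by Dicer-2 do so in the body.

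In these hindguts 452 of the 879 copies had a mean above 0, and 427 (48.6%) were listed at 0. Of those above 0, 237 were too low to carry an adjusted p and 215 were tested. The means of all copies summed to 69103 normalized counts, 0.235% of the whole table and 0.572% of the checked stretches. Most of the sum came from few families, since copia held 35.7% of it and mdg1 15.1%. In all, 68 copies had a mean of at least 100.

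Long copies were measured far more often than short ones. Of 127 copies of at least 4500 bases, 13 (10.2%) were listed at 0, against 230 of 327 copies (70.3%) under 150 bases. Copies inside genes were listed at 0 in 144 of 405 cases, and copies outside genes in 276 of 460. The gap was wide in the shorter length classes and small in the longest. Among copies of at least 4500 bases, 7 of 77 inside genes (9.09%) and 5 of 47 outside (10.6%) were listed at 0, and from 2000 to 4499 bases 1 of 16 inside and 6 of 33 outside. Between 500 and 1999 bases, 9 of 58 copies inside genes (15.5%) and 37 of 73 outside (50.7%) were listed at 0. Under 150 bases, the counts were 83 of 149 (55.7%) inside and 145 of 174 (83.3%) outside.

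Copies covered by other features were listed at 0. All 45 copies that lay within another copy were listed at 0, and 10 of these were at least 4500 bases long, among them copia{}466, copia{}539 and blood{}409. All 35 copies that lay wholly in exons of other genes were also listed at 0, against 104 of 350 copies inside genes that had no exon base. These zeros were not read as a lack of RNA. Without both kinds, 99 of 360 copies inside genes (27.5%) and 241 of 425 outside (56.7%) were listed at 0.

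**Figure D1:**
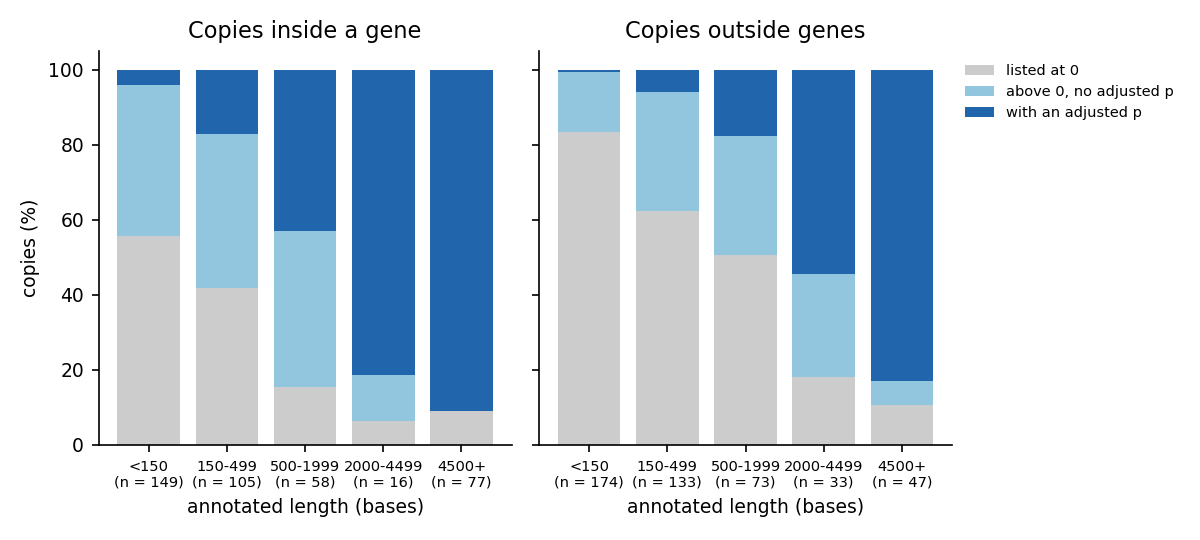
Bars give the percentage of copies listed at 0, above 0 without an adjusted p, and with an adjusted p, by annotated length in bases, for copies inside a gene (left) and outside genes (right). The share listed at 0 is highest under 150 bases, 55.7% inside and 83.3% outside, and the panels differ least at 4500 bases or more, 9.09% inside and 10.6% outside.

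The question of the comparison was which RNAs differed between mature and young hindguts. At an adjusted p under 0.05 in the DESeq2 Wald test, 23 copies were higher in mature guts, 28 were higher in young guts and 164 did not pass. These are 10.7% and 13.0% of the tested copies, below the 15.4% of features higher in mature guts and the 16.3% higher in young guts over the whole table. Of the tested features of the stretches, 19.7% and 20.7% passed in these directions. The tested copies had lower means (median 69.1 against 658) and larger SEs (median 0.37 against 0.18) than those features. Whether this accounts for the lower shares was not tested. The median log2 change of the tested copies was 0.15, and that of all 2604 tested features in the stretches was -0.0070. After the log2 changes were recentred on ribosomal protein genes (median 0.17), the split became 29 higher in mature guts and 20 in young guts. In bulk RNA, fewer cells of a type and less RNA per cell cannot be told apart.

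Copies with high means passed more often. Among the 68 copies with a mean of at least 100, 19 (27.9%) were higher in mature guts and 13 (19.1%) in young guts. The features of the stretches with such means passed in 24.9% of cases toward mature and 25.4% toward young. The 19 copies include 11 of copia and 4 of mdg1, and the 13 include 10 of blood. Copies of a family share sequence and are not independent measurements, so these shares rest largely on few families. At least 2-fold apart were 10 copies toward mature guts (4.65% of those tested) and 17 toward young guts (7.91%), against 4.66% and 5.74% of the whole table and 5.76% and 7.80% of the features of the stretches, so the share toward young guts is at that of the stretches. Of the 17, 9 lie in a single interval of 2L that is described with its DNA transposons. The SE of the whole table has a ceiling of 0.53, so log2 changes of copies with low means may be pulled toward 0; this was not tested.

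Most calls went by family. Of 92 families, 47 had a tested copy and 19 a copy that passed, 9 of them toward mature and 11 toward young, with INE-1 alone in both. Copies of a family share sequence, and how reads that match several copies were assigned is not given in the sources used here. Near-identical copies therefore cannot be told apart, and copies of 1 family are not independent measurements.

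LTR elements carried most of the calls. Of 177 LTR copies, 104 were tested, 20 were higher in mature guts and 14 in young guts, and their median log2 change was 0.05. The shares, 19.2% and 13.5% of those tested, were not above the 19.7% and 20.7% of all tested features of the stretches. Toward mature guts the calls were 11 copia, 4 mdg1 and 2 diver copies and 1 copy each of 3S18, opus and springer. Toward young guts they were 10 blood copies, 2 Tabor copies and 1 copy each of Transpac and mdg3.

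Among families with at least 4 tested copies, the largest median change was that of mdg1, a member of the Ty3 group. All 4 tested copies, each over 4500 bases long, were higher in mature guts, with means of 2337 to 2898 and log2 changes of -1.84 to -1.53 in the authors' deposited table. The copy mdg1{}305, inside the giant matrix protein gene dpy, was 3.59-fold higher in mature guts (log2 -1.84, SE 0.11, adjusted p 9.081e-58 by DESeq2) in the authors' deposited table. The copy mdg1{}299 (2L, 3202794 to 3210165), outside genes, had a log2 change of -1.84 (SE 0.09, adjusted p 3.685e-81 by DESeq2) in the authors' deposited table. These copies, inside a gene and outside genes, had nearly the same change. The smallest of these changes was that of mdg1{}914 on 3L, at -1.53 (SE 0.11) in the authors' deposited table. The fifth copy, mdg1{}5628, is a short fragment listed at 0.

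All 11 tested copia copies were higher in mature guts too, by less. Copia is the founding member of its group of LTR elements, and its copies were among the most abundant of all, with means of 1781 to 2928 in the authors' deposited table. Their log2 changes ran from -0.63 to -0.46 with a median of -0.57. The SD across the 11 copies was 0.046, under the median SE of a single copy, 0.097. The 6 copies inside genes lay between -0.59 and -0.55, and the 5 outside between -0.63 and -0.46. The copy of highest mean, copia{}387 (2L, 16141218 to 16146366), lies outside genes and was 1.38-fold higher in mature guts (log2 -0.46, SE 0.09, adjusted p 1.324e-06 by DESeq2) in the authors' deposited table. Of the other 3 copia copies, 1, copia{}434, has a mean of 0.50 by the authors' deposited table, and 2 lay within other elements and were listed at 0.

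The blood family, also of the Ty3 group, went the other way. All 10 tested copies were higher in young guts, with log2 changes of 0.54 to 0.72 and a median of 0.64. Their means were lower, 288 to 423 in the authors' deposited table, and their median SE was 0.21. The copy of highest mean, blood{}280 inside the phospholipase gene Plc21C, was 1.49-fold higher in young guts (log2 0.58, SE 0.21, adjusted p 0.018 by DESeq2) in the authors' deposited table. With recentring, 4 of the 10 still passed, and at an adjusted p under 0.01 it was 6.

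Smaller LTR families had single copies with large changes. The copy springer{}300 (2L, 3251549 to 3259058) was 2.49-fold higher in mature guts (log2 -1.32, SE 0.15, adjusted p 4.007e-17 by DESeq2) in the authors' deposited table. Both tested diver copies were higher in mature guts, diver{}926 at a log2 change of -1.36 (SE 0.17) and diver{}317 at -1.01 (SE 0.13) in the authors' deposited table. Toward young guts, Transpac{}362 inside B4 had a log2 change of 1.35 (SE 0.21, adjusted p 1.190e-09 by DESeq2) in the authors' deposited table. The Tabor copies were Tabor{}341 at 0.93 (SE 0.16) and Tabor{}384 at 1.34 (SE 0.47) in the authors' deposited table. Of all copies, 3S18{}5563 (3L, 5104538 to 5107766) had the highest mean, 4794, and a log2 change of -0.39 (SE 0.11, adjusted p 0.0015 by DESeq2) in the authors' deposited table. Its relative 3S18{}3955 in the same interval had a mean of 298 and, by the authors' deposited table, a log2 change of -0.09 that did not pass.

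Other LTR families had few calls or none. None of the 27 roo copies, of the Bel group, passed the DESeq2 test (0 at an unadjusted p under 0.05 in either direction), and their log2 changes lay between -0.38 and 0.47 around a median of 0.05, which becomes -0.12 on recentring. By the authors' deposited table, the 2 tested flea copies had means of 1700 and 1831 with log2 changes of 0.16 and 0.13. The 4 HMS-Beagle copies, at means of 240 to 287, lay between 0.04 and 0.28 in the authors' deposited table. The 5 opus copies were all below 0, from -0.98 to -0.50, and 1 of them, opus{}374, passed (4 at an unadjusted p under 0.05, toward mature guts). A call that failed does not show that a family was equal at both ages.

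**Figure D2:**
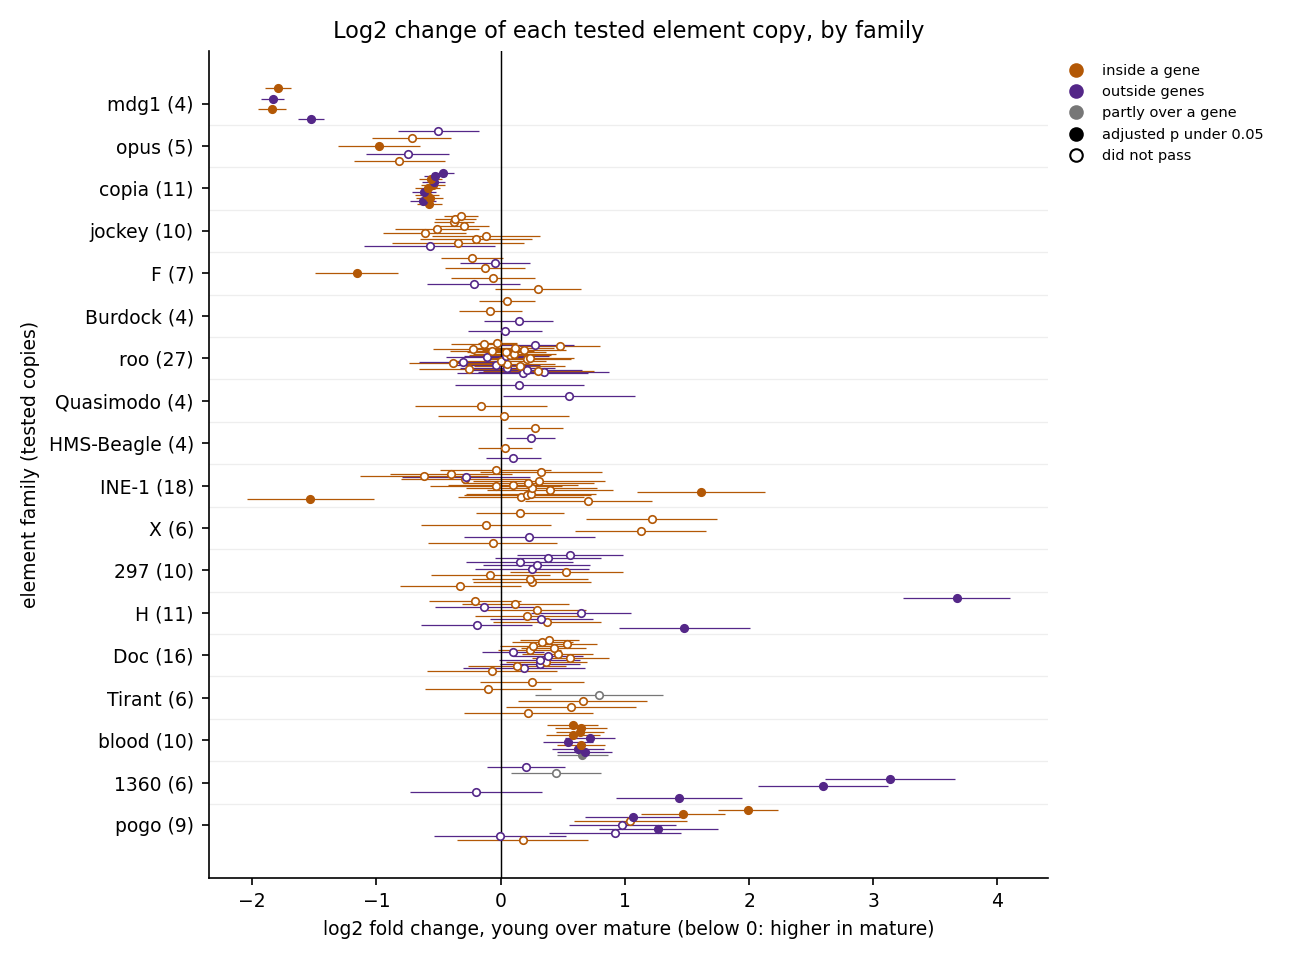
Each point is a tested copy, placed by its log2 fold change of young over mature (x axis, bars: SE) in a row for its family, for families with at least 4 tested copies ordered by their median; filled points passed an adjusted p under 0.05. All mdg1 and copia copies lie below 0 (higher in mature guts) and all blood copies above 0, each in a narrow band.

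Among long copies, level per length mostly differed between families far more than within them. Over tested copies of at least 4500 bases, the median was 414 normalized counts per kb for copia, 353 for mdg1 and 351 for flea. It was 42.9 for blood, 33.1 for Doc, 9.25 for roo and 4.46 for 297. Within copia the values ran from 346 to 569 per kb, and within blood from 38.8 to 56.8. The family 3S18 had no tested copy of that length, and its 2 tested copies had means of 298 and 4794. Among the long copies a single roo copy broke the pattern. The copy roo{}339 (2L, 10946999 to 10956155), inside the cell surface protein gene dpr2, had a mean of 2843, or 310 per kb, in the authors' deposited table, against a median mean of 80.6 over all 27 roo copies. By the authors' deposited table its log2 change was -0.03 (SE 0.16), which did not pass.

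**Figure D3:**
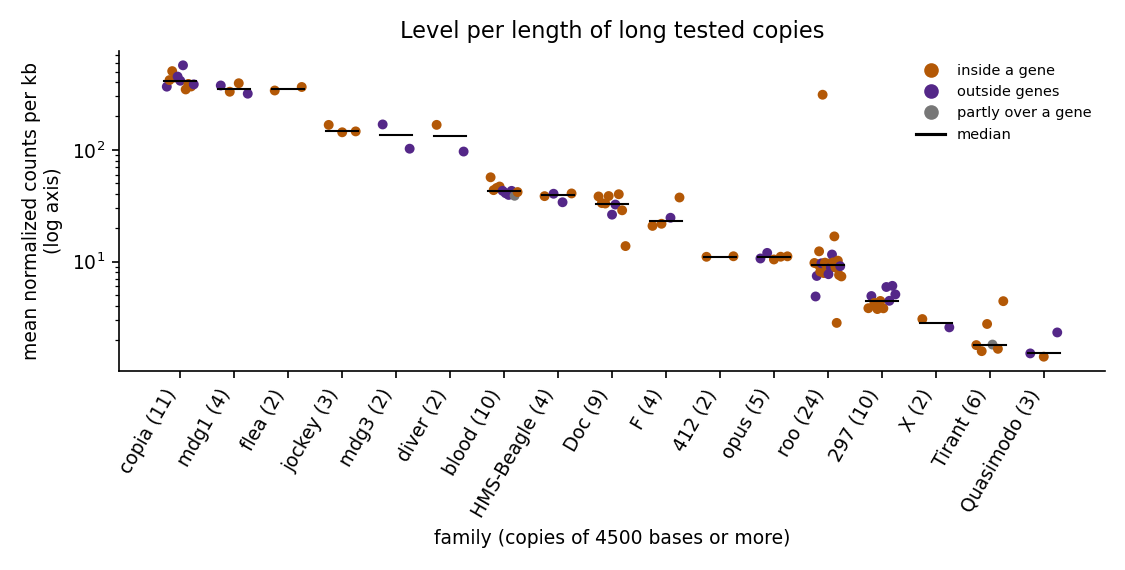
Points give the mean normalized count per kb (log axis) of each tested copy of at least 4500 bases, by family in order of the median (black line), coloured by position. Most copies of a family lie close together, as in blood at 38.8 to 56.8 per kb, except roo{}339 at 310 per kb above a roo median of 9.25.

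Features named as copies of the same family had less similar log2 changes outside the checked stretches, where names may not fit the counts. For the 11 families with at least 3 copies of a mean of 50 or more on each side, the SD of the log2 change across copies had a median of 0.15 in the stretches and 0.70 elsewhere. It was smaller in the stretches for 9 of the 11, the exceptions being H and pogo. For copia, 9 copies elsewhere ran from -0.79 to 3.19. For blood, 6 copies elsewhere ran from -0.34 to 1.46, and for mdg1, 9 copies elsewhere ran from -1.49 to 0.47. Names outside the stretches were not relied on here, so these values cannot show whether copies of a family differ more there.

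Non-LTR elements passed rarely. Of 142 copies, 53 were tested, 2 were higher in mature guts and 2 in young guts, and the median log2 change was 0.13. Each direction is 3.77% of those tested, beside 19.7% toward mature and 20.7% toward young of all tested features of the stretches. The tested non-LTR copies had lower means (median 76.5 against 658) and larger SEs (median 0.35 against 0.18) than those features. In the DESeq2 test 0 of the 16 Doc copies passed (1 at an unadjusted p under 0.05, toward young guts), although 15 of them lay above 0, between -0.07 and 0.56 in all, with a median of 0.33 (0.15 on recentring). Of the 10 tested jockey copies 0 passed (3 at an unadjusted p under 0.05, toward mature guts), and all lay below 0, from -0.61 to -0.12. On recentring, 3 jockey copies passed toward mature guts. The most abundant, jockey{}277, had a mean of 835 and a log2 change of -0.32 (SE 0.14, adjusted p 0.062 by DESeq2) in the authors' deposited table.

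The 4 non-LTR copies that passed were 1 each of F, Doc4, G2 and I. The copy F{}349, inside the ABC transporter gene MRP, had a log2 change of -1.16 (SE 0.33, adjusted p 0.0026 by DESeq2) in the authors' deposited table. The other 6 tested F copies lay between -0.23 and 0.30 and did not pass. Toward young guts, I{}929 (3L, 5122064 to 5124611) had a log2 change of 2.63 (SE 0.52, adjusted p 3.916e-06 by DESeq2) at a mean of 21.6 in the authors' deposited table. It lies in the same gap between genes as 3S18{}5563, which was higher in mature guts.

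DNA transposons with terminal inverted repeats passed only toward young guts. Of 128 copies, 37 were tested, 11 were higher in young guts, all at least 2-fold, and 0 were higher in mature guts by DESeq2, also at an unadjusted p under 0.05. The 11 are 29.7% of the tested copies of the class, beside 20.7% of all tested features of the stretches toward young guts and 7.80% at least 2-fold, and 19.7% toward mature guts. The median SE was 0.48 in the class against 0.18 for those features, so a call in the class mostly needed a larger change. The median log2 change was 0.44. The 11 comprised 4 pogo, 3 1360, 2 H and 2 hopper2 copies, and their means were low, the highest being 217. The 1360, H and hopper2 copies among them all lie in 1 interval of 2L, described below and chosen after its values were seen. The share of the class therefore rests largely on that interval.

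Pogo was higher in young guts at several places. Of 9 tested copies, 8 lay above 0 and 4 passed, with a median log2 change of 1.04 (0.10 with no filter on low means). The copy pogo{}4759 (2L, 21539460 to 21540930) stood highest, 3.97-fold higher in young than mature guts (log2 1.99, SE 0.24, adjusted p 3.359e-15 by DESeq2) at a mean of 217 in the authors' deposited table. It lies in a histone pseudogene of the histone gene cluster. The copy pogo{}297, inside the transcription regulator gene lilli, had a log2 change of 1.47 (SE 0.34, adjusted p 1.096e-04 by DESeq2) in the authors' deposited table, while lilli itself had -0.13 and did not pass. The other 2, pogo{}400 at 1.07 (SE 0.39) and pogo{}895 at 1.27 (SE 0.48) in the authors' deposited table, no longer passed on recentring or at an adjusted p under 0.01.

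The remaining 7 DNA transposon copies lie in a single gap between genes on 2L. The interval runs from 20134924 to 20248038, between CG10651 and lncRNA:CR40341, both listed at 0, and is 113 kb long. It holds 45 copies of 20 families over 75.2 kb, and this region is known as a piRNA cluster of the germ line, a locus whose long transcripts of element fragments are cut into piRNAs. Of the 45 copies, 19 were listed at 0, 13 had low means and 13 were tested. The interval was chosen after its values were seen.

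In the interval 1 copy was higher in mature guts and 9 were higher in young guts. The 9 come from 5 families, 3 of 1360, 2 of H, 2 of hopper2 and 1 each of G2 and mdg3, and stand on both strands (6 minus, 3 plus). Their log2 changes ran from 1.40 to 3.67 with a median of 1.76, and their means ran from 7.25 to 71.4 and summed to 222 normalized counts. The change was largest for H{}1612 (2L, 20202639 to 20205313), 12.7-fold toward young guts (log2 3.67, SE 0.43, adjusted p 3.242e-16 by DESeq2) at a mean of 71.4 in the authors' deposited table. Next came 1360{}4716 at 3.13 (SE 0.52, adjusted p 2.384e-08 by DESeq2) in the authors' deposited table. The longer copies hopper2{}461 and 1360{}441 had 2.78 (SE 0.49) and 2.60 (SE 0.52) in the authors' deposited table. Inside hopper2{}461 (4643 bases) lies a G2 copy of 3102 bases. Within 1360{}441 (4217 bases) lie a hopper2 copy of 1586 bases and a short hopper copy. H{}2191 (3418 bases), also among the 9, holds a G2 copy of 2758 bases. These inner copies were listed at 0, and which element the counts of the outer copies came from was not tested. The copy higher in mature guts was copia{}1684, with a mean of 2634 and a log2 change of -0.53 (SE 0.09, adjusted p 2.755e-08 by DESeq2) in the authors' deposited table, within the range of the other copia copies.

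Copies of these families did not pass elsewhere in the stretches. Outside the interval, 3 tested 1360 copies lay between -0.19 and 0.45, 9 H copies between -0.21 and 0.65, 2 mdg3 copies at 0.13 and 0.18, and 1 G2 copy at -0.18, with 0 passing by DESeq2, also at an unadjusted p under 0.05; whether they differed from the copies of the interval was not tested. No hopper2 copy was tested there. The 9 copies are 9 of the 18 copies outside genes that were higher in young guts, and without the interval 22 copies were higher in mature guts and 19 in young guts. Of 200 gaps between genes that hold copies, the one with the next most calls had 2. The neighbouring gap, between CG13970 and CG10651, is also known as a germ-line piRNA cluster. It holds 16 copies, of which 13 were listed at 0 and none was tested, the highest mean being 0.451.

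**Figure D4:**
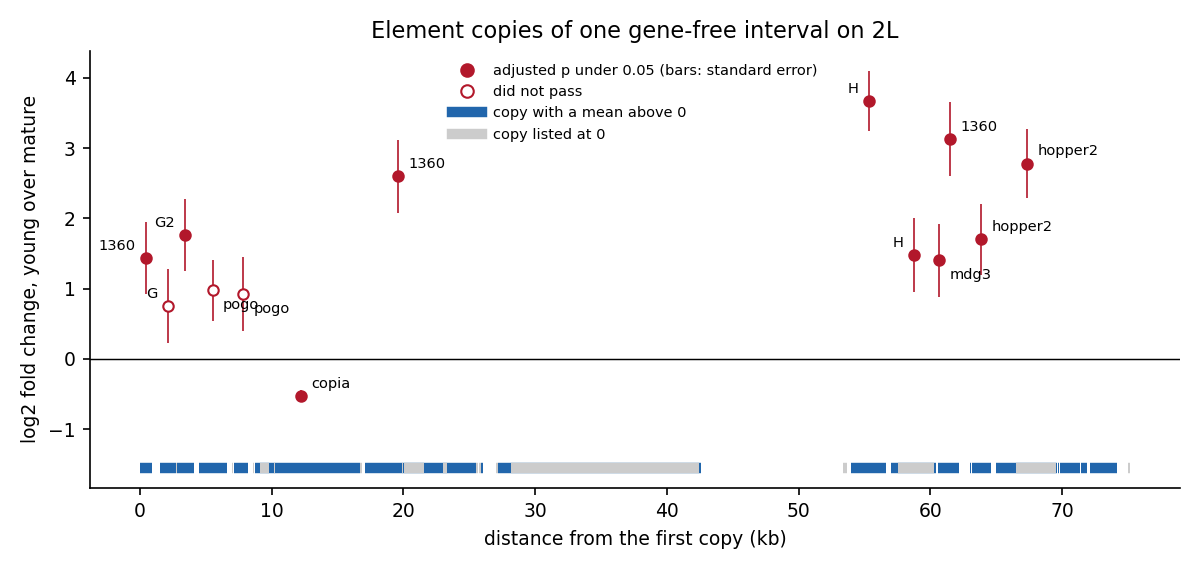
Points give the log2 fold change of young over mature (y axis, bars: SE) of the 13 tested copies of the interval, by distance in kb from its first copy, with filled points for an adjusted p under 0.05; the strip at the bottom marks all 45 copies. The 9 copies higher in young guts lie at both ends of the interval at 1.40 to 3.67, and copia alone lies below 0.

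INE-1 was the largest family and mostly listed at 0 or too low to test. Of 417 copies, 260 were listed at 0 (62.4%) and 18 were tested, 17 of these inside genes. The copy INE-1{}2236 was higher in mature guts and INE-1{}5403 higher in young guts, at means of 7.54 and 7.98 in the authors' deposited table. Both went with the gene around them. INE-1{}2236 had a log2 change of -1.53 and its tetraspanin gene Tsp39D -1.23, while INE-1{}5403 had 1.61 and its gene CG31626 2.10, in the authors' deposited table.

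By position, 132 copies inside genes were tested, of which 13 (9.85%) were higher in mature guts and 9 (6.82%) in young guts. Outside genes 79 were tested, of which 10 (12.7%) were higher in mature guts and 18 (22.8%) in young guts. Of those 18, 9 lie in the single 2L interval described above. Of all tested features of the stretches, 19.7% were higher in mature guts and 20.7% in young guts. The positions were not compared by a test. On recentring the counts became 18 and 6 inside, and 11 and 13 outside. The median log2 change was 0.10 inside and 0.19 outside, or -0.07 and 0.02 on recentring. Of the 4 tested copies partly over a gene, 1 passed, toward young guts. Inside genes, copies on the gene's own strand passed in 9 cases (13.4%) toward mature and 7 (10.4%) toward young of 67 tested. On the opposite strand the counts were 4 (6.15%) and 2 (3.08%) of 65. Whether the counting used strand is not given in the sources used here.

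Copies inside genes can share reads with unspliced RNA of the gene, so each was set beside its gene. For 121 tested copies the gene was tested too, in 91 distinct genes. Across these pairs the log2 changes of copy and gene had a Pearson r of 0.20 and a Spearman rho of -0.04, and the median absolute difference was 0.54; pairs that share a gene or a family are not independent. In 53 pairs the gene passed and the copy did not. Where both passed, 11 of 14 pairs had the same direction and 3 the opposite one.

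Copia, mdg1 and blood together had 12 tested copies in tested genes. In 9 of these pairs both passed, 7 in the same direction and 2 in opposite ones, and in the other 3 the gene did not pass. The copy copia{}910 lies in sls, the titin-like muscle protein gene, and had a log2 change of -0.59 (SE 0.10), whereas sls had 0.63 (SE 0.07) in the authors' deposited table. The copy copia{}298 had -0.59 and its gene toc -0.48, and copia{}302 had -0.56 and its gene for, a cGMP-dependent protein kinase, -0.38 in the authors' deposited table. The copy mdg1{}900 had -1.79 (SE 0.11), and its gene Glut1, a glucose transporter, -0.31 (SE 0.09) in the authors' deposited table. The matrix gene dpy around mdg1{}305 had 0.11 by the authors' deposited table and did not pass.

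Copies of different families also parted in some shared genes, and the copies set out here were partly picked after their values were seen. In Hr39 no such difference was shown. The copies INE-1{}5417, Tc1-2{}5474 and HB{}484 had 0.16, -0.09 and 0.69 with SEs of 0.51 to 0.53, and none passed. The transglutaminase gene Tg holds copia{}324 at -0.55 (SE 0.09) and Doc{}325 at 0.54 (SE 0.24), the second short of the threshold, in the authors' deposited table. The gene Tsp39D, at -1.23, holds INE-1{}2236 at -1.53 and blood{}488 at 0.65, and all 3 passed in the authors' deposited table. Copy and gene parted for opus{}374, which had -0.98, while its gene mol, a maturation factor of NADPH oxidase, had 0.58 in the authors' deposited table. Copy and gene went the same way elsewhere, since Doc4{}2475 at -2.36 (SE 0.53) lay in CG31809 at -2.78 (SE 0.10), and diver{}317 at -1.01 in the neuroligin gene Nlg2 at -3.36, in the authors' deposited table.

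**Figure D5:**
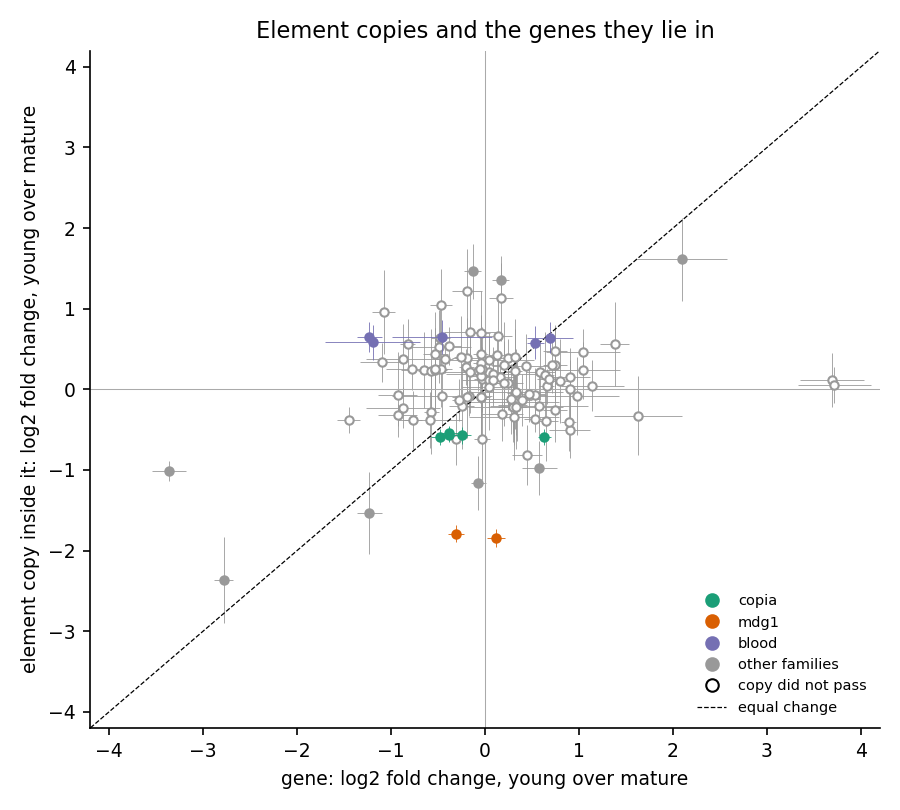
Each point is a tested copy inside a tested gene (121 copies), with the gene's log2 fold change of young over mature on the x axis and the copy's on the y axis (bars: SE); filled points are copies with an adjusted p under 0.05, and the dashed line marks equal change. Where both passed, 11 of 14 pairs lie on the same side of 0, and for copia, mdg1 and blood 7 of 9 do.

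Genes that silence elements were looked up in the same stretches. Of 54 genes in the list, 17 lie there and 15 were tested, of which 5 were higher in mature guts, 0 were higher in young guts and 10 did not pass. Of all tested features of the stretches, 19.7% were higher in mature guts and 20.7% in young guts. At an unadjusted p under 0.05, 8 genes of the list were higher in mature guts and 1 in young guts, r2d2, the Dicer-2 partner, at a log2 change of 0.26 (adjusted p 0.099 by DESeq2) in the authors' deposited table. The median log2 change was -0.47, and 14 of the 15 lay below 0. The largest was that of tj, a transcription factor gene of somatic gonad cells, at -1.74 (SE 0.51, adjusted p 0.0030 by DESeq2) at a mean of 31.4 in the authors' deposited table. The others were loqs, a Dicer partner, at -0.56 (SE 0.12), SoYb, a Tudor domain protein, at -0.43 (SE 0.16), Nbr, which trims small RNA ends, at -0.40 (SE 0.11), and the gene of heterochromatin protein 1a at -0.36 (SE 0.10), in the authors' deposited table.

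The germ-line members of the pathway were low. The piRNA genes aub, vas, piwi, squ, zuc and del, which are also the germ-line markers present in the stretches, had means of 15.03 to 166 in the authors' deposited table. By DESeq2 0 of the 6 passed (3 at an unadjusted p under 0.05, toward mature guts), and all had a log2 change below 0, from -1.24 (SE 0.53, adjusted p 0.058 by DESeq2) for del to -0.34 (SE 0.52) for zuc in the authors' deposited table. The helicase gene armi was listed at 0. Their part in the element changes was not tested.

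Markers of the tissue and of other cells were measured beside the copies. The 7 hindgut genes of the stretches had means of 505 to 165721, of which 3 were higher in mature guts and 3 in young guts. The 3 muscle genes had means of 55993 to 428275, with 1 higher in mature guts and 2 in young guts, and the 4 haemocyte genes split 1 and 3. Both fat body genes, Fbp2 and Lsp1beta, were higher in young guts at means of 83.8 and 109. The 2 neuronal genes went opposite ways. By the authors' deposited table nSyb was higher in mature guts (log2 -1.91, SE 0.33), and Syt1 lay toward young guts (log2 0.98, SE 0.44) and did not pass. Beside these counts, 19.7% of all tested features of the stretches were higher in mature guts and 20.7% in young guts. At a mean of at least 100 the shares were 24.9% and 25.4%. The part of these cells in the element values was not tested.

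The authors also deposited short lists of features for each age. The mature list of 91 features holds 11 copies, 1 of them in the checked stretches, Doc4{}2475. The young list of 132 features holds 16 copies, of which 6 lie in the checked stretches, namely H{}1612, 1360{}441, 1360{}4716, hopper2{}461, pogo{}4759 and I{}929. The high-level families copia, mdg1 and blood, with 25 copies that passed, are thus on neither list within the stretches. The listed copies there had log2 changes of 1.99 to 3.67, or -2.36 for Doc4{}2475. Those of copia, mdg1 and blood were smaller in size, from -1.84 to 0.72, so absence from the lists is not a failed test.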

How the data were processed

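Per the labels' protocols, Trizol was used to extract total RNA, and paired reads came from a NovaSeq run. The submitters' processing notes list HISAT2, Trim Galore, DESeq2 and the BDGP6 build, with no versions. Not given in the sources used here are the counting program, its strand setting and what was done with reads matching several places. The authors' deposited table gives per feature a mean of normalized counts, a signal over all libraries, and a log2 fold change of young over mature with its standard error, per the file headers. Its Wald score, p-value and Benjamini-Hochberg adjusted p-value are the authors' own, as deposited, and the adjusted p was under 0.05 for a call. Values and depth per library were not analysed here.

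Features were matched by identifier to the Ensembl annotation of BDGP6, release 115, with 1-based positions; 81 had no entry. A copy was inside a gene when it lay wholly within a gene's span, and its gene was the overlapping one of highest mean. Element classes were assigned by family name. Counts, medians and recomputed Wald tests used Python 3.11.15 with pandas 2.3.3, numpy 2.4.6 and scipy 1.17.1. Only the Wald test and the Benjamini-Hochberg adjustment were tested on simulated log2 changes. Copies named were the 15 largest changes per direction, the 10 highest means overall and outside genes, the highest mean of families with 5 tested copies and the longest copy of families with a call. Copies named beside these (copia{}324, copia{}434, copia{}466, copia{}539, blood{}409, blood{}488, mdg1{}5628, Doc{}325 and pogo{}895), the interval and the comparison with copies elsewhere were chosen after their values were seen. The members and lists were chosen with earlier results of these data known.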

Additional observations from a re-analysis of the deposited data

How the results depend on the processing

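The direction of a call could not turn in these alternatives. All but recentring reuse the same log2 changes, and recentring shifts them by 0.17, less than the smallest change called toward young guts, 0.54. Recentring turned the sign of the median log2 change for copies inside genes (0.10 to -0.07) and for roo (0.05 to -0.12), and the split of all copies to 29 toward mature guts and 20 toward young guts, against 23 and 28. With no exon base, the median difference of copy and gene turned to -0.02, against 0.03. An adjusted p under 0.01 left 39 of the 51 copies called, with 18 toward young guts, and left 6 blood copies and 2 pogo copies toward young guts. A mean of at least 100 left 13 copies toward young guts, 5 of them outside genes; 19 of the 51 were below it. The Wald test against a 2-fold change left 8 copies, 4 toward mature guts and 4 toward young guts. Recentring kept 43 of the 51 and lost 6 blood and 2 pogo copies, which left 4 blood and 2 pogo copies toward young guts. It gave 3 jockey copies and 8 silencing genes toward mature guts and moved the median log2 change to -0.74 for copia and -1.99 for mdg1. With no low-mean filter the pogo median was 0.10 instead of 1.04. Among copies of at least 150 bases, 23.8% inside genes and 45.8% outside were listed at 0. The cause of these shifts was not tested beyond what each alternative changes by construction. All 51 calls held with no low-mean filter and with adjustment over the checked stretches alone. No paired analysis was possible because the result table gives no library-level values, and for that reason no replicate could be left out. Keeping only copies with sequence unique in the genome was not run for either result it concerns, since no genome sequence was used here. Low means and shared sequence limit what single copies can show, since 215 of the 879 carry an adjusted p.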
